A study of Gallus gallus with 6 samples.

Results

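The genes described here are those of the chick sex chromosome Z, taken as every gene that the processed data place on chromosome Z apart from *PTCH1* and *GAS1*. They number 359 of the 10337 genes listed (3.47%) and lie between position 252567, the first start of these genes, and 74595002, their last end. They comprise 351 genes annotated as protein coding, 1 snoRNA, 1 miRNA and 6 without a type. Positions are those of the authors' Ensembl chick genome, whose assembly is not given in the sources used here. The genes called autosomal here are all listed genes not placed on Z, and number 9976. Whether a few of them lie on W or another sequence outside the numbered autosomes was not checked. The rule takes genes by position, leaves those 2 out by name, and uses no measured value.

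RNA was measured in 3 swellings that form the face, the frontonasal prominence (FNP), the maxillary prominence (MXP) and the mandibular prominence (MNP), of control and *talpid2* embryos at stage HH25. *talpid2* is an autosomal recessive mutant of the chicken with facial clefting and extra digits. There was 1 library per genotype and prominence, made from tissue of 8 embryos, so the genotypes could not be compared over replicates. The series text reads as if the 3 prominences of a genotype came from the same 8 embryos, in which case they are not independent samples of a genotype. The eggs came from matings of heterozygous carriers, and neither the *talpid2* genotype of the control embryos (wild type or heterozygous) nor the sex of any embryo is given. The paper lists *talpid2* embryos on an inbred and on a commercial white leghorn background, with the parent line of each. It does not state which line gave the embryos of these libraries. A difference of line between the genotypes, if there was one, cannot be told apart from genotype.

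In birds the male has a pair of Z chromosomes and the female has a Z and a W. Compensation for this difference in dose is incomplete, so many Z genes are expressed at a higher level in male than in female cells, to a degree that varies from gene to gene. The short arm of Z also holds the male hypermethylated locus, whose noncoding transcripts are made in female cells. Since the sexes of the pooled embryos are not given, the sex make-up of the pools and the genotype cannot be told apart in any value that follows.

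Each deposited value is the log2 level of a gene in a library minus the median of that gene over the 6 libraries, so it gives no absolute level. The difference between the *talpid2* and the control value of a prominence is a log2 ratio, on which -1 is a halving. Numbers of reads could be worked back from these values for 202 of the 359 Z genes (mean over the libraries from 2.84 to 971 reads, median 162), since the values before the log were whole numbers of bases of 50-base reads. A further 5 genes had a library at the lowest value that the data hold, and for 152 no reads were recovered. For the FNP, MXP and MNP in that order, which is kept for every set of 3 values given without names, relative depth was 1.15, 0.990 and 1.204 in control and 0.949, 0.986 and 1.01 in *talpid2* libraries. Reads are given as recovered, not divided by depth, while log2 differences take depth into account. Tests on recovered reads compare 2 libraries, cover counting error only, and treat amplified reads as independent molecules.

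Z genes as a group lay lower in *talpid2* than in control in every prominence, by a small amount. The median difference of the 359 genes was -0.0509 (FNP), -0.0595 (MXP) and -0.0684 (MNP), which on the linear scale is 0.965-fold, 0.960-fold and 0.954-fold. Autosomal genes weighted to the same number of libraries within limits set by the authors had medians of 0.0013, -0.0021 and 0.0014. The Z median minus this autosomal median was therefore -0.0522, -0.0574 and -0.0698. These are descriptions of 3 pairs of libraries, and no test was made of them, since genes are not replicates. The authors' limits do not follow the recovered reads, so the autosomal genes are not matched on read level. *RFX3*, with 100.02 to 505.7 reads per library, lay within the limits in 1 library, and *MTX3*, with 5.62 to 11.4 reads, in all 6.

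The same was seen library by library. Relative to the median of the matched autosomal genes in the same library, Z genes stood at 0.012 in control FNP, 0.041 in control MXP and 0.021 in control MNP, and at -0.022, -0.0054 and -0.035 in the *talpid2* FNP, MXP and MNP. All 3 control libraries were thus above all 3 *talpid2* libraries. Each gene is centred over the 6 libraries, so a high value in one genotype goes with a low value in the other, and the sign of each level has no meaning of its own. The same medians were taken for the 27 autosomes with at least 50 listed genes, with all autosomal genes as the reference, and in none of the 27 did the genotypes separate in this way. In single libraries some small autosomes lay as far from 0 as Z or farther, such as chromosome 26 in the control FNP (0.030), chromosome 25 in the control MNP (0.043) and chromosome 28 in the *talpid2* FNP (-0.024).

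**Figure D1:**
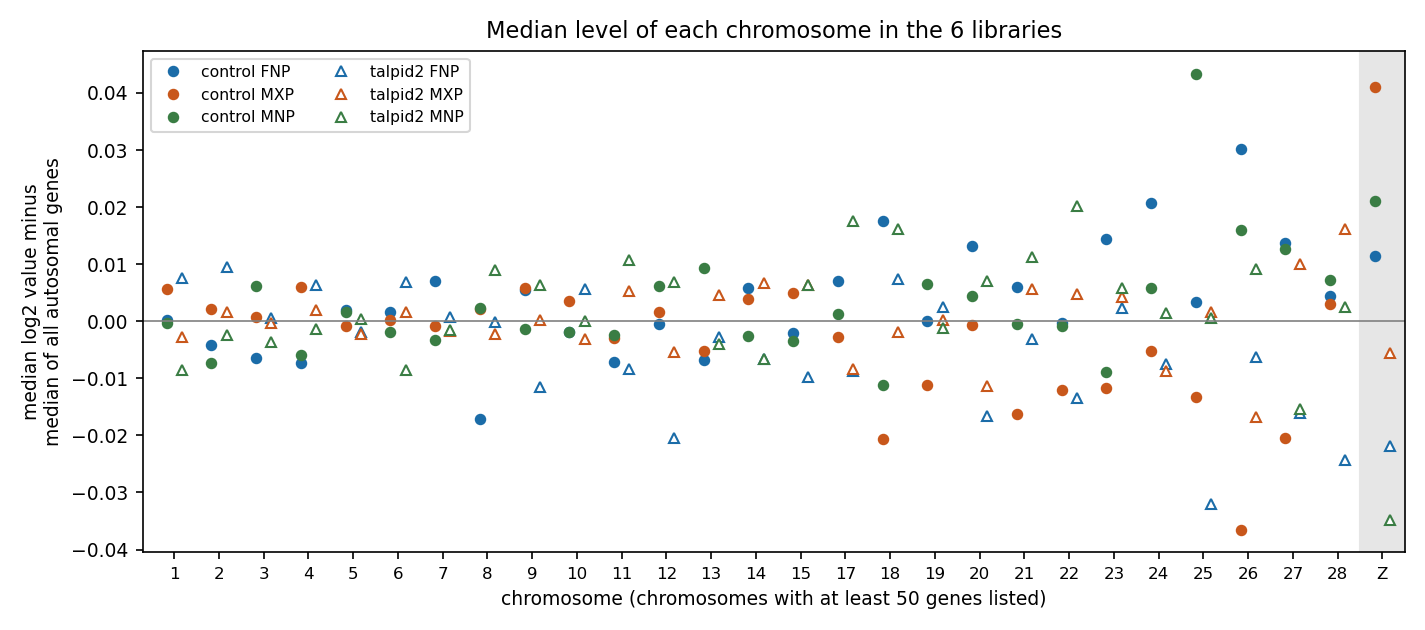
Median log2 value of the genes of each chromosome minus the median of all autosomal genes (y axis), for chromosomes with at least 50 listed genes (x axis), in the 3 control libraries (filled circles) and the 3 talpid2 libraries (open triangles). On chromosome Z, shaded, the control libraries all lie above the talpid2 libraries, and on each of the 27 autosomes the genotypes overlap.

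Most erythroid markers lay lower in the *talpid2* libraries, while muscle, neural and epithelial markers had differences of both signs. Of 10 erythroid markers on all chromosomes 9, 8 and 8 were below 0 in the FNP, MXP and MNP, with medians of -1.41, -0.99 and -0.66. Embryonic globin *HBZ*, the lowest of them in the FNP, had -1.64, -1.23 and -0.78. Not all fell: *LMO2* had 0.02, 0.07 and 0.09, and *TAL1* had -0.13, 0.40 and 0.17. On Z *FECH*, which acts in haem synthesis, had -0.41, -0.38 and -0.20. The 8 muscle markers had medians of -0.42, -0.13 and -0.44, with 6, 5 and 8 below 0. Among them *MYL1* had 2.18 in the FNP and *DES* 0.74 in the MXP. The 9 neural markers had medians of -0.091, -0.056 and -0.066, with 5, 5 and 8 below 0. For the 6 epithelial markers the medians were 0.15, 0.060 and -0.14, with 2, 2 and 5 below 0. The part of blood and of these other cells in the Z differences was not tested, and fewer cells of a type and less RNA per cell cannot be told apart in such tissue.

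Among 28 chromosomes, Z had the lowest median difference in the MXP and the MNP and the third lowest in the FNP. In the FNP chromosome 28 lay lower (-0.0990, 81 genes) and chromosome 26 was close to Z (-0.0530). The lowest autosomes in the other prominences were chromosome 24 in the MXP (-0.0266) and chromosome 26 in the MNP (-0.0624), so only in the MXP did Z stand clear of every autosome. The highest autosomal medians were 0.0242, 0.0419 and 0.0360.

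The shift was carried by many genes rather than by a few. In the FNP 221 of the 359 Z genes (61.6%) were below 0, against 49.9% of all listed genes. The MXP had 241 (67.1%) below 0, against 51.0%, and the MNP had 243 (67.7%), against 50.1%. The autosomes ranged from 44.5% to 64.8% (FNP), from 41.8% to 56.8% (MXP) and from 38.5% to 60.3% (MNP), so Z lay outside the autosomal range in the MXP and the MNP and inside it in the FNP. Both the upper and the lower quartile were moved: the lower quartile of Z minus that of the matched autosomal genes was -0.073, -0.080 and -0.082, and the upper quartile -0.047, -0.060 and -0.065. The interquartile range of Z was 0.272, 0.250 and 0.234, against 0.246, 0.230 and 0.218 for the matched autosomal genes. Among the 316 Z genes that lay inside the limits in all 6 libraries it was 0.218, 0.221 and 0.186, against 0.219, 0.208 and 0.197, so these genes were about as even as autosomal genes around a lower centre.

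Falls shared by all 3 prominences were more frequent on Z than among all listed genes, and shared rises were less frequent. Lower in *talpid2* in all 3 prominences were 119 Z genes (33.1%), against 21.7% of all listed genes, and higher in all 3 were 33 (9.19%), against 20.5%. In 36 Z genes (10.03%, against 6.73%) all 3 *talpid2* values were below all 3 control values. They included *SMAD2*, a transducer of TGFβ and activin signals (-0.074, -0.12 and -0.0069), and *ROR2*, a receptor for Wnt ligands (-0.68, -0.55 and -0.12). *IL6ST*, the shared receptor chain of the interleukin 6 family (-0.23, -0.17 and -0.17), and *FECH*, the last enzyme of haem synthesis (-0.41, -0.38 and -0.20), were also among them. These named genes had no recovered reads and so no test, and *SMAD2* was near 0 in the MNP. In 8 Z genes (2.23%, against 6.71%) all 3 *talpid2* values were above all 3 control values. These sets rest on the same 3 pairs of libraries as the medians and add no independent evidence of direction.

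Along the chromosome the difference was spread over its length. In windows of 10 Mb, which held 24 to 58 genes, the median was below 0 in 7 of 8 windows in the FNP and in all 8 windows in the MXP and the MNP. The exception was the window from 20 to 30 Mb in the FNP, whose 52 genes had a median of 0.0012, with 26 of them below 0. Window medians reached from -0.0990 to 0.0012 (FNP), from -0.0974 to -0.0290 (MXP) and from -0.133 to -0.0043 (MNP). The lowest window differed between prominences: it was 40 to 50 Mb for the FNP, 50 to 60 Mb for the MXP (-0.0974) and 10 to 20 Mb for the MNP (-0.133, 41 of 56 genes below 0). The last window, from 70 Mb on, had 24 genes and medians of -0.0875, -0.0781 and -0.0043. In windows of 5 Mb, with 16 to 36 genes, 13 of 15 medians were below 0 in the FNP and all 15 in the MXP and the MNP. In the interval from 25 to 35 Mb, taken as the surroundings of the male hypermethylated locus, the 40 genes had medians of -0.0044, -0.0901 and -0.0614, and the 319 genes outside it -0.0533, -0.0565 and -0.0696. The ends of this interval were chosen from general knowledge, since the locus is not annotated in the data. The interval holds *RFX3*, ENSGALG00000018479 and *AK3*, which are described below.

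**Figure D2:**
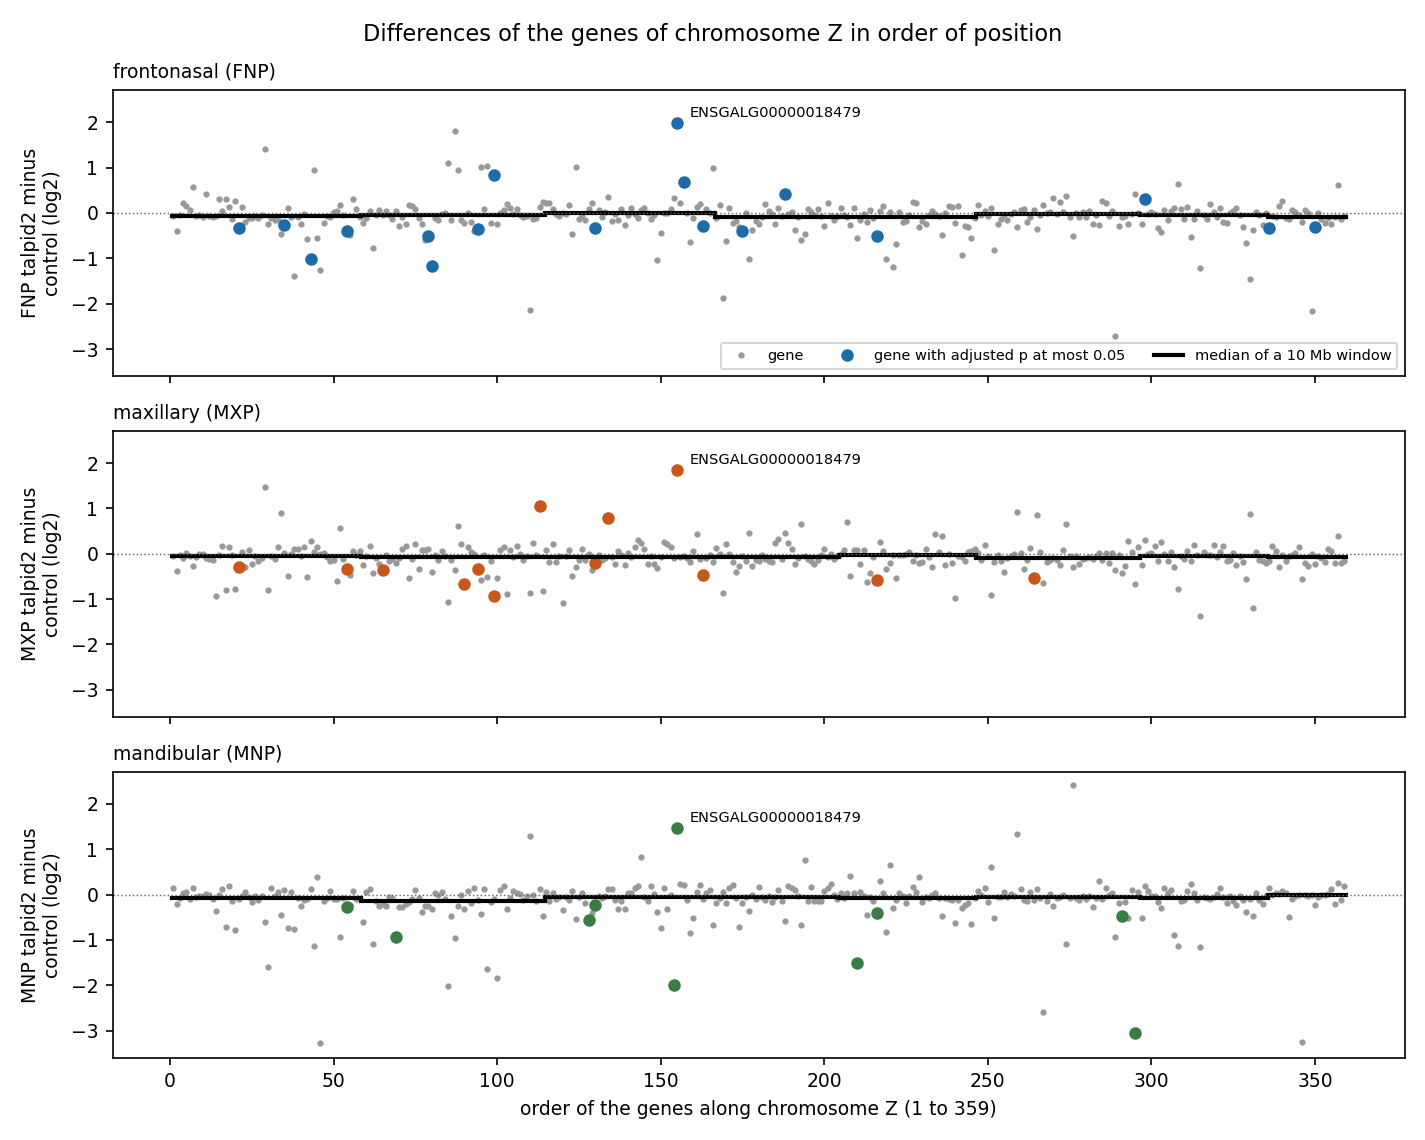
Talpid2 minus control (log2, y axis) of each of the 359 Z genes in order of position (x axis) in the FNP, MXP and MNP, with genes that passed the read test in that prominence as large coloured points and the medians of 10 Mb windows as black lines. The window medians lie just below 0 in each window but 1 (20 to 30 Mb in the FNP, at 0.0012), and ENSGALG00000018479 is the one large rise at the same place in all 3 prominences.

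The largest departures from the common level were in genes with few reads. Past a log2 difference of 1 in either direction were 21 Z genes in the FNP (5.85%, against 1.86% of all listed genes). The MXP had 7 (1.95%, against 1.72%) and the MNP 19 (5.29%, against 1.54%). In the FNP 7 of these (1.95%) were higher, against 0.813% of all genes, and 14 (3.9%) were lower, against 1.04%. The MXP had 3 higher (0.836%, against 0.9%) and 4 lower (1.11%, against 0.822%). The MNP had 4 higher (1.11%, against 0.6%) and 15 lower (4.18%, against 0.938%). In any prominence there were 37 such genes (10.3%, against 4.01%). Of these 37, 27 had a mean of under 50 recovered reads, 5 had a library at the lowest value and 2 had no reads recovered, and only *MYO3AL*, *RFX3* and ENSGALG00000018479 had a mean of 50 reads or more. Among the genes within the limits in all 6 libraries the counts were 6 (1.90%, against 0.405%), 4 (1.27%, against 0.318%) and 4 (1.27%, against 0.164%). A gene needed only 1 library within the limits to be listed, so it can be listed through the high library that makes its difference. The 14 Z genes within the limits in 1 to 2 libraries had medians of -0.278, -0.191 and -1.03. Autosomal genes of this class had -0.0362, -0.0635 and -0.0648. The shares over all listed genes are not matched for this. Without the 72 Z genes with a mean under 50 reads or a library at the lowest value, a split made after the data were seen, 4 of 287 Z genes were past this limit in the FNP (1.39%, against 0.842% of autosomal genes left in), 1 was in the MXP (0.348%, against 0.623%) and 2 were in the MNP (0.697%, against 0.470%). Within the 72 genes, 17 were past it in the FNP (23.6%, against 11.4% of autosomal genes of this class). The MXP had 6 (8.33%, against 13.8%) and the MNP 17 (23.6%, against 11.7%). The Z share was thus above the autosomal share among low-read genes in the FNP and the MNP, and below it in the MXP.

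Low read numbers were themselves more frequent on Z. Of the 316 Z genes within the limits in all 6 libraries, 38 (12.03%) had a mean of under 50 recovered reads, against 2.93% of 8810 autosomal genes, and 30 of the 38 spanned over 5000 bases, against 71 of the 258 autosomal genes with as few reads. Genes that were both low in reads and over 5000 bases long thus made up 9.49% of these Z genes and 0.806% of the autosomal genes. On chromosomes 26, 27 and 28 together low-read genes made up 14.0% and long low-read genes 9.01%, and on the remaining autosomes 2.64% and 0.594%. The long low-read genes had median differences of -0.193, -0.230 and -0.302 on Z. On chromosomes 26 to 28 these medians were -0.0856, -0.319 and 0.147, so the direction was not shared in the MNP. The low-read class behind these values was made after the data were seen. *RPS6*, which encodes a protein of the small ribosomal subunit and is abundant in most cells, had only 10.2, 3.32 and 5.02 reads in the control and 4.16, 4.56 and 3.28 in the *talpid2* libraries. Such numbers are low for this gene, and what was counted for it was not tested.

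The Z shift was largest among genes with few reads. The 67 Z genes with a mean under 50 reads had medians of -0.219, -0.208 and -0.433 in the FNP, MXP and MNP, with interquartile ranges of 0.766, 0.795 and 0.781, while the 770 autosomal genes of this class had medians of -0.0201, 0.0101 and -0.028. The 46 genes with 50 to 200 reads had medians of -0.0846, -0.0379 and -0.102, and the 30 genes with 500 reads or more -0.0459, -0.0312 and -0.0499. The 59 genes with 200 to 500 reads had medians of -0.0356 and -0.0335 in the FNP and the MXP but 0.013 in the MNP, where 29 were below 0. The 149 genes within all limits for which no reads were recovered lay at -0.0411, -0.0565 and -0.0617, with 98, 108 and 110 of them below 0. Without the low-read genes, and with those for which no reads were recovered left in, the Z median was -0.0424, -0.0498 and -0.0565. Among genes with 500 reads or more, where counting error is small, the Z median was below 0 in every prominence (autosomal medians 0.020, 0.013 and 0.017). At 200 to 500 reads it was below 0 in the FNP and the MXP but not in the MNP. The part of the low-read genes in the overall median is given by these values.

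**Figure D3:**
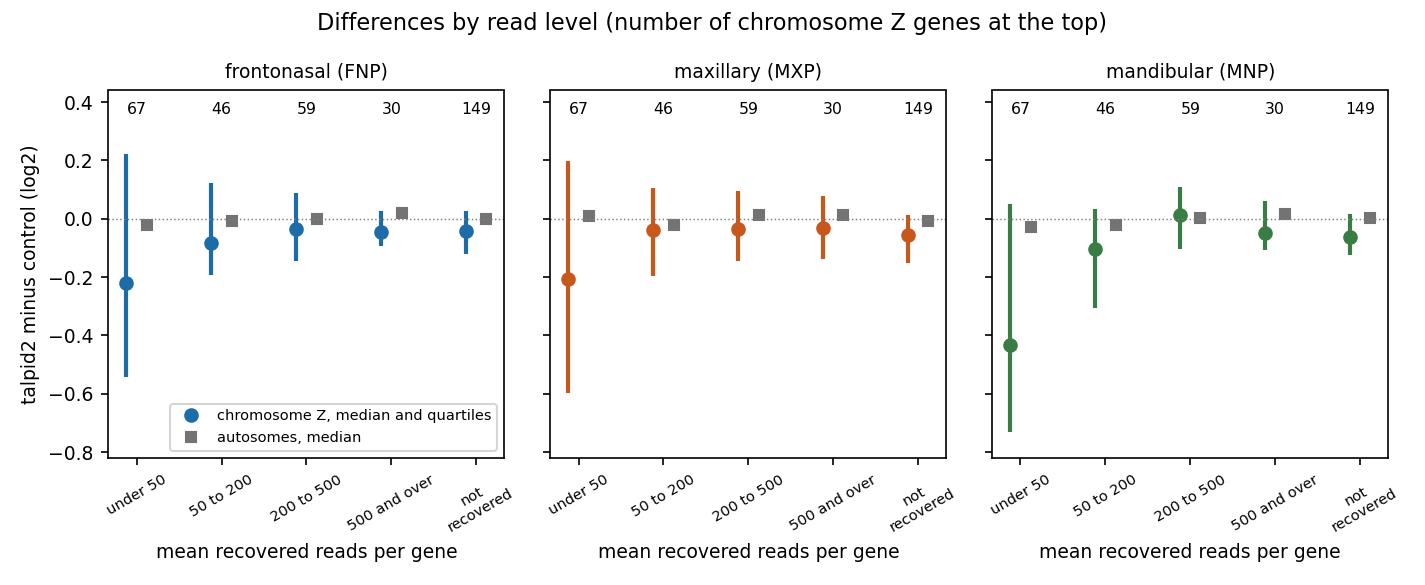
Talpid2 minus control (log2, y axis) by mean number of recovered reads (x axis; the last class holds genes with no reads recovered that lay within all limits) in each prominence, as the median and quartiles of Z genes (coloured) and the median of autosomal genes (grey squares), with the number of Z genes above each class. Z medians lie below the autosomal medians in each class except 200 to 500 reads in the MNP, and lowest for genes under 50 reads.

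Summed over the 202 genes with recovered reads, Z held 56112.6 reads in the control and 45366.9 in the *talpid2* FNP, a log2 ratio of -0.034 once depth is taken into account. The MXP sums were 46783.4 and 45278.8 (-0.042) and the MNP sums 57301.9 and 46477.6 (-0.049). The same ratio over the 5126 autosomal genes was 0.0059, 0.0083 and 0.0073. The sums weight genes by their reads and so rest little on the low-read genes.

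Among genes with recovered reads, Z had about as large a share of differences as all genes tested, but more of them were falls. Reads were sought only up to 1000 in the library with the highest value of a gene, so a deeper library can hold more. Genes without recovered reads had no test. The 2-sided exact Audic-Claverie test at a Benjamini-Hochberg adjusted p of at most 0.05 called 18 of 202 Z genes in the FNP (8.91%, against 9.78% of 5328 genes tested). It called 13 for the MXP (6.44%, against 5.84%) and 10 for the MNP (4.95%, against 6.10%). In the FNP 13 were lower (6.44%, against 5.03%) and 5 higher (2.48%, against 4.75%). For the MXP 10 were lower (4.95%, against 3.02%) and 3 were higher (1.49%, against 2.82%). For the MNP 9 were lower (4.46%, against 3.28%) and 1 was higher (0.495%, against 2.82%). Altogether 29 Z genes passed in at least 1 prominence, 21 of them in 1, 4 in 2 and 4 in all 3. Of the 29, 22 were lower and 6 higher wherever they passed, and *C5orf35* passed in opposite directions.

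The largest difference shared by all 3 prominences among Z genes within all limits was that of ENSGALG00000018479, on the minus strand of Z from 27961980 to 27970949, which the files list as protein coding and which has no gene name here. It had 104.5, 77.8 and 146.8 reads in the control libraries and 342.2, 277.6 and 340.9 in the *talpid2* libraries. Every *talpid2* library was above every control library. The log2 differences were 1.98 (95% Clopper-Pearson interval 1.67 to 2.32, adjusted p = 3.34e-38 by the exact Audic-Claverie test), 1.84 (1.47 to 2.22, adjusted p = 1.75e-24 by the exact test) and 1.47 (1.18 to 1.76, adjusted p = 8.28e-24 by the exact test), or 3.95-fold, 3.58-fold and 2.77-fold. It was the only Z gene called higher in all 3 prominences (0.495% of those tested, against 0.244% of all genes tested). By the smallest of its 3 differences it ranked 1 of 9128 genes within all limits, ahead of a gene with 0.71. Its ratio did not pass the exact conditional test of a difference between prominences (lowest adjusted p = 0.260).

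Its neighbours did not move with it as a block. *CDC37L1*, which encodes a cochaperone of HSP90 and starts at 27977189, had log2 differences of 0.21, -0.08 and 0.24, with 246.2 to 292.3 reads per library, and none passed the test. *AK3*, a mitochondrial adenylate kinase starting at 27990738, rose in the FNP from 93.8 to 124.7 reads (0.68, interval 0.29 to 1.09, adjusted p = 0.0103 by the exact Audic-Claverie test) and had differences of -0.06 and 0.20 in the MXP and the MNP. On the other side *RFX3* had 0.34, -0.10 and -1.99. A little further on, ENSGALG00000015050 (28410578 to 28420744) fell in the FNP and the MXP (-0.29 and -0.46).

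Called lower in all 3 prominences were 3 Z genes (1.49% of those tested, against 0.282%). *S1PR3*, a receptor for sphingosine 1-phosphate, had 436.9, 435.0 and 776.3 reads in the control and 256.4, 291.8 and 488.1 in the *talpid2* FNP, MXP and MNP libraries. Its log2 differences were -0.50, -0.57 and -0.42, the upper ends of the intervals were -0.27, -0.35 and -0.25, and the adjusted p values by the exact Audic-Claverie test were 0.000347, 1.87e-05 and 5.11e-05. ENSGALG00000021847 (9506143 to 9517275, minus strand, without a name) went from 651.2, 756.3 and 747.4 reads to 410.7, 601.4 and 515.8, with differences of -0.39, -0.33 and -0.28. *LHFPL2*, which encodes a tetraspan membrane protein, went from 665.6, 959.9 and 1066.3 reads to 439.1, 830.1 and 766.7, with differences of -0.33, -0.20 and -0.22. In each of these genes the fall was of similar size in the 3 prominences, while the genotypes overlapped across prominences once reads were divided by depth.

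**Figure D4:**
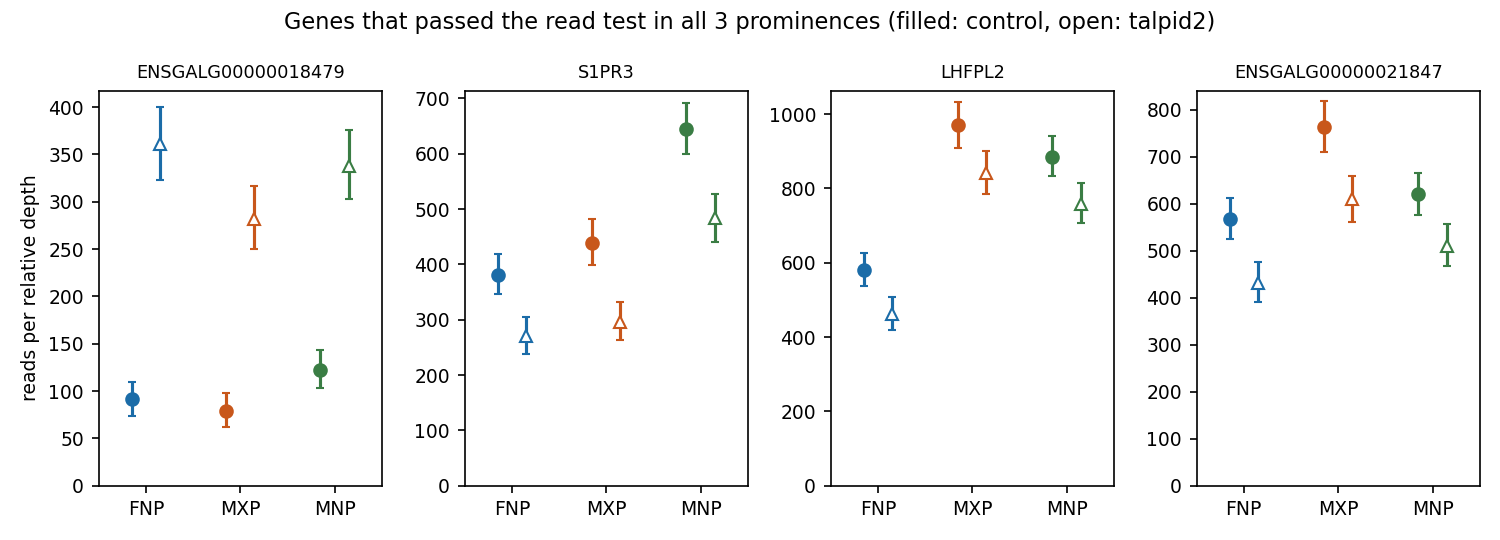
Reads divided by relative depth (y axis, from 0) of the 4 Z genes that passed the read test in the same direction in all 3 prominences (x axis), in control (filled circles) and talpid2 libraries (open triangles), with exact 95% Poisson intervals that cover counting error only. ENSGALG00000018479 is higher in talpid2 in each prominence, with no overlap of the genotypes, and S1PR3, LHFPL2 and ENSGALG00000021847 are lower.

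Other genes had a shared direction with less support. *SNX30*, a sorting nexin that acts in membrane traffic, was the only other Z gene past a log2 difference of 1 in the same direction in all 3 prominences, with 21.5, 12.7 and 13.5 reads in the control and 7.74, 4.88 and 5.10 in the *talpid2* libraries. Its differences were -1.20, -1.38 and -1.15, and none passed the test at this depth (lowest adjusted p = 0.207, exact Audic-Claverie test). *SETBP1*, which encodes a protein that binds the SET oncoprotein, fell in the FNP from 1111.6 to 730.8 reads and in the MXP from 993.9 to 806.1 (-0.33 and -0.30), with -0.10 in the MNP. The unnamed locus NEWGENE74 fell in the same prominences (-0.36 and -0.34), with -0.12 in the MNP. Among genes within all limits, *TSTD2*, of the thiosulfate sulfurtransferase family, had 33.4, 32.7 and 35 reads in the control and 17.4, 22.2 and 22.4 in the *talpid2* libraries, and *TDRD7*, a Tudor domain protein of RNA granules, 11.1, 17.7 and 11.1 reads and 7.08, 7.64 and 6.74. In both genes all *talpid2* values lay below all control values, by -0.67, -0.56 and -0.39 and by -0.37, -1.20 and -0.46, and none passed the test. The shared positive differences after ENSGALG00000018479 were smaller. *GRHPR*, glyoxylate reductase, had 0.61, 0.39 and 0.25 with 25.1 to 52.0 reads per library, and none passed. *HAPLN1*, a link protein of hyaluronan and proteoglycan in cartilage, had differences of 0.30, 0.29 and 0.19, of which only the first passed (975.4 and 996.3 reads, adjusted p = 0.000152 by the exact Audic-Claverie test), and *HAUS1*, of the augmin complex of the spindle, had 0.13, 0.16 and 0.19.

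Taken over all 359 genes, the median Z shift hardly differed between prominences. The median over genes of the difference in 1 prominence minus that in another was -0.0069 for FNP minus MXP, 0.0159 for FNP minus MNP and 0.0039 for MXP minus MNP, and among autosomal genes -0.0030, -0.0041 and 0.0001. The shift was less alike among genes with fewer libraries within the limits. The 29 Z genes with 3 to 5 such libraries had median differences of -0.0615, -0.3195 and -0.4327 in the FNP, MXP and MNP. Autosomal genes of this class had -0.0103, -0.0433 and -0.0652. Across the 316 genes within all limits, which are not independent replicates and share the centring over 6 libraries, the differences of 2 prominences had a Pearson's r of 0.26 (FNP and MXP), 0.33 (FNP and MNP) and 0.33 (MXP and MNP), against 0.25, 0.29 and 0.31 for autosomal genes. Spearman's rho over these genes was 0.16, 0.30 and 0.34, against 0.26, 0.35 and 0.35. Over all 359 Z genes r was 0.15, 0.0072 and 0.30, against 0.18, 0.22 and 0.22, and rho was 0.092, 0.16 and 0.34, against 0.23, 0.30 and 0.32. Whether Z resembled the autosomes in this therefore depended on the genes and the measure taken.

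Single genes did differ between prominences. Of the 202 genes with recovered reads, 8 (3.96%, against 4.99% of 5328) had a ratio of *talpid2* to control that differed between at least 2 prominences, by an exact conditional test with Benjamini-Hochberg adjustment over 3 pairs of prominences and all genes tested. The ratio differed between FNP and MXP in 2 (0.990%, against 2.65%), between FNP and MNP in 4 (1.98%, against 2.67%) and between MXP and MNP in 5 (2.48%, against 1.63%). In 7 of the 8 the MNP differed from another prominence. The MNP is part of 2 of the 3 pairs, and the same share over all genes tested was not taken. The count therefore shows no trait particular to Z.

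*RFX3*, a transcription factor of the RFX family that drives ciliary genes, stood apart through 1 library. It had 131.3, 107.8 and 505.7 reads in control and 137.2, 100.02 and 106.8 in the *talpid2* libraries, so that the control MNP library was high and the other 5 were alike. The difference was -1.99 in the MNP (interval -2.30 to -1.69, adjusted p = 1.61e-45 by the exact Audic-Claverie test), with 0.34 and -0.10 in the FNP and the MXP. The ratio differed between the FNP and the MNP by 2.33 and between the MXP and the MNP by 1.89 on the log2 scale (adjusted p = 7.27e-10 for both by the exact conditional test, from the smallest p that this test gives here). The gene lay within the authors' limits in 1 library only, and every listed gene had at least 1 such library. Since the control MNP was its highest library, its listing may rest on the same library that makes the difference. The p values of *RFX3* are therefore no independent support for a difference in the MNP.

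*C5orf35*, listed from 16675929 to 16827865 and named after a human open reading frame, moved in opposite directions. Its reads were 481.5 in the control and 712.4 in the *talpid2* FNP. They were 319.8 and 168.0 for the MXP and 435.8 and 344.1 for the MNP. The differences were 0.84 (interval 0.67 to 1.005), -0.92 (-1.20 to -0.65) and -0.09 (-0.30 to 0.12), and all 3 pairs of prominences differed (adjusted p from 7.27e-10 to 0.000243 by the exact conditional test).

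In 4 further genes the MNP was the low prominence. *FBP1*, fructose-bisphosphatase of gluconeogenesis, had 55.8, 44.1 and 78.3 reads in the control and 31.5, 46.3 and 23.0 in the *talpid2* libraries, and fell in the MNP (-1.51, interval -2.25 to -0.82, adjusted p = 0.000215 by the exact Audic-Claverie test). Its ratio differed between the MXP and the MNP by 1.59 (adjusted p = 0.0371, exact conditional test). *ABCA1*, a transporter that exports cholesterol from cells, had differences of 0.36, 0.65 and -1.08, with 19.3 to 48.8 reads per library, and *NPR3*, the clearance receptor for natriuretic peptides, had 0.18, 0.58 and -0.93, with 15.04 to 61.2 reads. For both the MXP and the MNP differed (1.73, adjusted p = 0.0376, and 1.51, adjusted p = 0.0405, exact conditional test), although no single prominence passed the read test. *ANXA1*, a phospholipid-binding annexin, rose in the FNP (0.42, 286.9 and 318.5 reads) and had 0.45 and -0.59 in the MXP and the MNP, with a difference between the FNP and the MNP of 1.01 (adjusted p = 0.00787, exact conditional test).

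In the other 2 genes the FNP was low. *SEPP1*, selenoprotein P, a carrier of selenium, had 593.3, 276.7 and 476.0 reads in the control and 347.6, 296.4 and 335.7 in the *talpid2* libraries. It fell in the FNP (-0.50, interval -0.69 to -0.30, adjusted p = 1.60e-05 by the exact Audic-Claverie test), with 0.10 and -0.25 in the MXP and the MNP, and the FNP and the MXP differed by -0.60 (adjusted p = 0.0110, exact conditional test). *SEMA6A*, a transmembrane semaphorin of axon guidance, fell in the FNP (-0.34, 643.5 and 420.7 reads) and had -0.17 and 0.14 in the others, with a difference between the FNP and the MNP of -0.48 (adjusted p = 0.0158, exact conditional test).

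**Figure D5:**
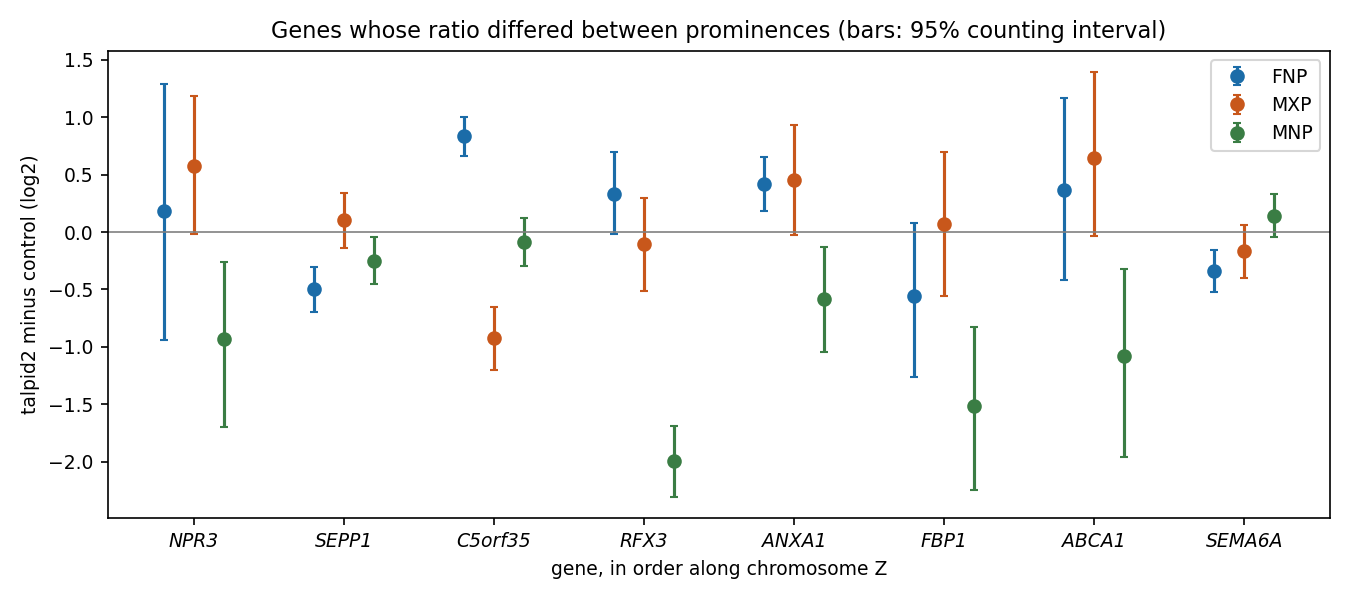
Talpid2 minus control (log2, y axis) in the FNP, MXP and MNP of the 8 Z genes, in order along the chromosome (x axis), whose ratio differed between prominences, with 95% Clopper-Pearson intervals that cover counting error only. RFX3 lies at -1.99 in the MNP alone, and C5orf35 is above 0 in the FNP and below 0 in the MXP.

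Further genes passed the read test in 1 prominence without a difference between prominences that passed. In the FNP *ZNF131*, a zinc finger protein, fell from 73.2 to 26.96 reads (-1.17, adjusted p = 0.00427, exact Audic-Claverie test), with -0.41 and -0.31 in the MXP and the MNP. The gene *MYO3AL* at 8602011 to 8605049 fell from 87.2 to 35.6 reads (-1.02, adjusted p = 0.00600, same exact test). A second entry with the name *MYO3AL*, at 8597143 to 8599753, had -0.57, -0.52 and -0.10. In the MXP *ADAMTS6*, a secreted metalloprotease, rose from 29.9 to 61.7 reads (1.05, adjusted p = 0.0240, exact Audic-Claverie test) and *IQGAP2*, a scaffold protein of the cytoskeleton, from 59.6 to 102.6 (0.79, adjusted p = 0.0212, same exact test). In the MNP *EGFLAM*, a matrix protein, fell from 108.2 to 47.5 reads (-0.94, adjusted p = 0.00503, exact Audic-Claverie test), and *BHMT2*, a homocysteine methyltransferase, from 724.8 to 410.0 (-0.57, adjusted p = 3.30e-08, same exact test).

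A list of 25 symbols of genes with a counterpart on W matched 8 Z genes: *TXNL1*, *SMAD2*, *GOLPH3*, *SUB1*, *MIER3*, *SPIN1*, *CHD1* and *KCMF1*. Genes that the data hold under another symbol were missed, so the values that follow cover the matched genes only. Below 0 were 5 (FNP), 6 (MXP) and 7 (MNP), with medians of -0.057, -0.10 and -0.12, beside Z medians of -0.0509, -0.0595 and -0.0684. *CHD1*, a chromatin remodeller, was the one above 0 in all 3 prominences (0.17, 0.02 and 0.07), and *MIER3* had the lowest value (-1.84 in the MNP, from 14.7 to 3.44 reads, adjusted p = 0.126 by the exact Audic-Claverie test). The sex determination list of 9 symbols matched only *FST* and *SPIN1*, and *SPIN1* is also 1 of the 8 genes above. A role of either gene in sex determination was not tested.

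The signalling and transcription list had 23 members on Z, of which 12, 17 and 20 were below 0 in the FNP, MXP and MNP (medians -0.056, -0.12 and -0.14). In each prominence 1 of the 11 with recovered reads was called, near the shares of all genes tested that were called (9.78%, 5.84% and 6.10%). The one called was lower each time: *SEMA6A* in the FNP, *FST*, the activin antagonist follistatin, in the MXP (131.1 and 82.1 reads, -0.67, adjusted p = 0.0208, exact Audic-Claverie test), and *MEF2C*, a transcription factor of muscle and neural crest, in the MNP (20.5 and 2.08 reads, -3.05, adjusted p = 0.00742, same exact test). Receptors without recovered reads included *ROR2* (-0.68, -0.55 and -0.12), the growth hormone receptor *GHR* (-0.60, 0.09 and -0.26) and the leukaemia inhibitory factor receptor *LIFR* (-0.30, -0.09 and -0.28). *FGF10*, a ligand of epithelial receptors, had differences past 1 of mixed sign (1.11, -1.06 and -2.02), but at most 11.1 reads in a library and the lowest value in the control FNP, and *ISL1*, a homeodomain factor, had 4.2 to 16.3 reads, so neither could be followed at this depth.

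Matrix and adhesion genes numbered 12, of which 9, 7 and 6 were below 0 (medians -0.20, -0.084 and -0.059). Among all Z genes 61.6%, 67.1% and 67.7% were below 0. The read test called 9.78%, 5.84% and 6.10% of all genes tested, beside which the calls in these small lists are to be read. Of the 5 with recovered reads *HAPLN1* was called higher and *ADAMTSL1*, an ADAMTS-like matrix protein, lower in the FNP (549.9 and 347.5 reads, -0.39, adjusted p = 0.00204, exact Audic-Claverie test), *ADAMTS6* was called higher in the MXP, and none was called in the MNP. *VCAN*, the proteoglycan versican, stayed near 0 (-0.021, 0.0005 and 0.079), and *THBS4*, a thrombospondin, had -0.47, -0.48 and 0.07. The 15 metabolic genes had medians of -0.12, -0.020 and -0.20 with 12, 10 and 9 below 0, and of the 8 with recovered reads *BHMT2* and *FBP1* were called in the MNP, where 6.10% of all genes tested were called, and none in the FNP or the MXP. The 13 genes of ribosome, mitochondrion and proteasome had medians of -0.039, 0.071 and 0.013, with 9, 5 and 6 below 0, so that the median was below 0 in the FNP and above 0 in the MXP and the MNP. None of the 5 with recovered reads was called. Among them *RPL37*, of the large ribosomal subunit, had 0.09, 0.21 and 0.11, and *COX7C*, of cytochrome oxidase, -0.0049, 0.14 and 0.062.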

How the data were processed

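The authors sequenced the libraries on an Illumina HiSeq system, took the chick genome from Ensembl and processed the alignments in GeneSpring; the aligner is not given in the sources used here. The deposited log2 values were scaled by the authors per library, set to 1 where lower, and centred by gene on the median of the 6 libraries. The file also counts, for each gene, in how many libraries it lay between limits set by the authors (3.0 and 8607.81), which was at least 1 for every gene listed and was used to match autosomal genes.

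Members and gene lists were chosen with earlier results of these data known. Differences were *talpid2* minus control values, with no pseudocount. Whole bases of 50-base reads behind the values were sought up to 1000 reads in the library with the highest value of a gene. Reads were recovered for 5328 genes (51.5%). With the scaling of the libraries deliberately set wrong, 0.474% of genes had such a solution. Reads were rounded to whole numbers for the exact Audic-Claverie test named in the study methods (here with Benjamini-Hochberg adjustment) and for the exact conditional test of equal ratios, and the scripts were tested on simulated data. Lists covered genes with a counterpart on W, sex determination, signalling and transcription, matrix and adhesion, ribosome, mitochondrion and proteasome, metabolism, and erythroid, muscle, neural and epithelial markers. Alternatives changed the centring, filters, pseudocount, reference genes, fold limit, windows and test. Named genes were the 4 lowest and 4 highest differences per prominence, the 5 largest shared changes in each direction and the 5 largest ranges between prominences within all limits, genes past a log2 difference of 1 in 2 or more prominences, genes called in all 3, list members and neighbours. Not every gene that this rule allows is described. *C5orf35*, *SEPP1*, *ANXA1*, *SETBP1*, NEWGENE74 and ENSGALG00000015050 were named after their values were seen. Symbols came from the GRCg7b RefSeq table through Entrez identifiers for 249 Z genes and from the file for 110, which includes identifiers used as names. Python 3.11.15, numpy 2.4.6, scipy 1.17.1, pandas 2.3.3, numba 0.67.0 and matplotlib 3.10.9 were used.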

Additional observations from a re-analysis of the deposited data

Results flagged for a closer look

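In 8 Z genes the *talpid2* to control ratio of recovered reads differed between prominences by the exact conditional test (Benjamini-Hochberg adjusted p at most 0.05), which covers counting error between single libraries only. The log2 difference of the ratios was 1.76 (FNP minus MXP), 0.93 (FNP minus MNP) and -0.84 (MXP minus MNP) for *C5orf35*, and 2.33 (FNP minus MNP) and 1.89 (MXP minus MNP) for *RFX3*, where the control MNP library alone stood high. It was 1.51 for *NPR3*, 1.59 for *FBP1* and 1.73 for *ABCA1* (each MXP minus MNP), 1.01 for *ANXA1* and -0.48 for *SEMA6A* (each FNP minus MNP), and -0.60 for *SEPP1* (FNP minus MXP). The cause was not tested in any of them.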

How the results depend on the processing

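The Z median minus the autosomal median stayed below 0 under every alternative run, from -0.068 to -0.044 in the FNP, -0.065 to -0.048 in the MXP and -0.082 to -0.061 in the MNP. Taking *GAPDH* as reference or subtracting the autosomal median moves every gene alike. Those alternatives could not change this value and are no check of it. When *GAPDH* served as reference (its own differences were -0.010, 0.11 and 0.082) the Z median itself moved to -0.171 in the MXP and -0.151 in the MNP, beside autosomal medians of -0.114 and -0.081, and the medians of the differences between prominences to 0.115 (FNP minus MXP), 0.109 (FNP minus MNP) and -0.025 (MXP minus MNP). The counts of Z genes past a log2 difference of 1 (21, 7 and 19 in the FNP, MXP and MNP) moved most. They were 6, 4 and 4 within the limits in all 6 libraries, 1, 1 and 4 with a pseudocount of 10 reads among genes with recovered reads, 4, 1 and 2 without the low-read genes, and 44, 44 and 49 at a limit of 0.5. Windows with a median below 0 made up 95.8% at 10 Mb and 100% both at 20 Mb and without the low-read genes. The exact binomial test called 18, 12 and 10 genes in place of 18, 13 and 10. Leaving out low-read genes and the binomial test were chosen after seeing the data. No paired analysis was possible because the labels give no replicate numbers; control and *talpid2* could be paired only by prominence, and the 3 prominences may come from the same embryos, so no such fit was made. With 1 library per genotype and prominence no replicate could be left out. Depth limited genes under 50 reads, and genes without recovered reads had no test.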
